A study of Macaca fascicularis with 20 samples.

Results

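The miRNAs described here lie in introns of protein-coding genes that are used in neurons. They are mir-139, whose host gene is PDE2A, mir-218, which is made from loci in SLIT2 and in SLIT3, mir-326 in ARRB1 and mir-598 in XKR6. They were taken by name from the deposited counts, with both arms of each hairpin, and make up 4 of the 828 miRNA names and 8 of the 1656 arms shared by both tables. The miRNAs were singled out because each had an arm lower in the germinal zones than in the cortical plate in these same libraries. Their differences between germinal zones and cortical plate are therefore given as descriptions, from which nothing is inferred.

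An intronic miRNA can be transcribed together with its host gene, after which Drosha cuts the hairpin out of the intron and Dicer releases a duplex of a 5p and a 3p arm, of which usually one is loaded into an Argonaute protein and kept. PDE2A is a phosphodiesterase that breaks down cyclic nucleotides, SLIT2 and SLIT3 are secreted ligands of ROBO receptors that guide axons and migrating neurons, ARRB1 (beta-arrestin 1) is an adaptor of G-protein-coupled receptors, and XKR6 is a little-studied membrane protein of the XK family. In the developing cortex, newborn neurons leave the germinal zones and settle in the cortical plate, where many miRNAs of differentiated neurons accumulate. Host mRNAs were not measured in these libraries, so whether the miRNAs followed their hosts could not be examined.

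The libraries are size-selected small RNA from fetal cortex of the crab-eating macaque, Macaca fascicularis, cut out with a UV laser. The regions were the ventricular zone (VZ), which holds radial glia, the OSVZ (outer subventricular zone), the second germinal layer and a large one in primates, and the cortical plate (CP), each in visual areas 17 and 18. In area 17 the apical part of the OSVZ (OSVZ_17int, inner) and its basal part (OSVZ_17ext, outer) were cut separately. Each of the 7 regions had 2 libraries, replicate 1 from a set of embryonic day 80 and replicate 2 from a set of embryonic day 79, which made 4 VZ, 6 OSVZ and 4 CP libraries. The labels name no strain, allele or treatment, and do not tell whether 1 animal gave all regions of a set. The spread behind each p-value is thus that between libraries and may be partly technical.

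Library totals ran from 3603478 to 9517217 counts, and between 1001 and 1388 of the 1656 arms had a count above 0. As a check of the labels, miR-92b-3p, an arm of neural progenitors, was at 25498 to 52143 CPM (read counts over TMM-scaled library size, per megaread) in VZ and at 518 to 1082 CPM in CP. The summed level of 8 neuronal marker arms, of which 7 were tested, was 368 to 907 CPM in VZ, 418 to 760 CPM in OSVZ and 3412 to 8139 CPM in CP. The neuronal marker miR-124-3p had at most 19 counts in any library, CP included. How reads matching several loci were treated is not given, and its part in these counts was not tested. The low counts are therefore not read as absence from the tissue. A further fact about the CP libraries is that a short list of arms known from choroid plexus and pigment epithelium summed to 4947 to 7254 CPM there, against 209 to 1953 CPM in VZ and 167 to 957 CPM in OSVZ. Nearly all of this sum was a single arm, miR-204-5p, which CP libraries held at 4895 to 7238 CPM. Its range was 180 to 1906 CPM over the VZ libraries and 146 to 928 CPM over the OSVZ libraries. Of the 3 tested arms of that list, 1 passed edgeR's test in VZ against CP and 1 in OSVZ against CP. The sum therefore describes miR-204-5p rather than the list. Oligodendrocyte arms summed to 398 to 766 CPM in CP and to 97.5 to 318 CPM in the germinal zones, but the members of that list went different ways. The mean of miR-338-3p was 73.2 CPM in VZ, 51.2 CPM in OSVZ and 319 CPM in CP. That of miR-219-3p was 83.9 CPM in VZ, 42.9 CPM in OSVZ and 12.9 CPM in CP. Myeloid and lymphoid arms summed to 464 to 525 CPM in CP and to 737 to 1283 CPM in the germinal zones. Mural and mesenchymal arms ran at 1419 to 4938 CPM for OSVZ, 969 to 1957 CPM for VZ and 733 to 1175 CPM for CP. The part of these lists in the differences from CP was not tested. In bulk tissue such as this, fewer cells of a type and less RNA per cell cannot be told apart.

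The mir-139 hairpin, from the PDE2A intron, gave the most abundant arm of the 4. In CP, miR-139-5p was at 15290 and 8582 CPM in area 17 (replicates 1 and 2) and at 9828 and 7181 CPM in area 18. In VZ it was at 1604 and 511 CPM in area 17 and at 1138 and 841 CPM in area 18. In the 6 OSVZ libraries it ran from 969 CPM in OSVZ_17int replicate 2 to 3460 CPM in OSVZ_18 replicate 1, with a median of 1950 CPM. All CP libraries lay above all germinal libraries, and the OSVZ and VZ libraries overlapped. The mean of the 4 VZ libraries was 1023 ± 464 CPM (SD, n = 4), that of the 6 OSVZ libraries 2090 ± 828 CPM (n = 6) and that of the 4 CP libraries 10220 ± 3548 CPM (n = 4). Within a library, the arm ranked 12 to 17 among all arms in CP, where it took 0.744% to 0.992% of the counts, and 51 to 75 in VZ, where it took 0.0743% to 0.150%.

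miR-218-5p, which is known for its high level in motor neurons, has the same mature sequence from the SLIT2 and the SLIT3 locus, so the counts do not tell these sources apart. How reads matching both loci were counted is not given. miR-218-5p was at 1716 and 1053 CPM in CP of area 17 and at 2069 and 1244 CPM in CP of area 18. In VZ it was at 705 and 271 CPM in area 17 and at 801 and 296 CPM in area 18. In OSVZ it ran from 123 CPM in OSVZ_17int replicate 2 to 606 CPM in OSVZ_17ext replicate 1, with a median of 365 CPM. CP was again above every germinal library, and replicate 1 was the higher of the 2 libraries in each of the 7 regions, as it was for miR-139-5p. Both statements depend on the scaling. By library totals VZ_18 replicate 1 (1056 CPM) was above CP_17 replicate 1 (1039 CPM), and replicate 1 of miR-218-5p was the higher in 6 of 7 regions. Means were 519 ± 274 CPM for VZ (n = 4), 364 ± 201 CPM for OSVZ (n = 6) and 1521 ± 460 CPM for CP (n = 4), so that, unlike for miR-139-5p, the OSVZ mean was below the VZ mean. Its rank was 46 to 61 in CP, 58 to 106 in VZ and 87 to 145 in OSVZ.

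miR-326, which in cerebellar granule cell progenitors of human and mouse represses the Hedgehog transducer Smoothened, showed a stepwise order of zone means. miR-326-3p was at 569 and 668 CPM in CP of area 17 and at 555 and 678 CPM in CP of area 18. In VZ it was at 40.9 and 34.6 CPM in area 17 and at 45.7 and 85.1 CPM in area 18. In OSVZ it ran from 98.3 CPM in OSVZ_17int replicate 1 to 211 CPM in OSVZ_17int replicate 2, with a median of 149 CPM. On the TMM scale the 3 zones did not overlap, and the share of all arms for which this holds was not counted. By library totals VZ and OSVZ did overlap, since OSVZ_17int replicate 1 (55.7 CPM) was below VZ_18 replicate 1 (60.1 CPM) and VZ_18 replicate 2 (114 CPM), while CP remained above both. VZ averaged 51.6 ± 22.8 CPM (n = 4), OSVZ 147 ± 40.5 CPM (n = 6) and CP 617 ± 64.5 CPM (n = 4).

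miR-598, from the XKR6 intron, had similar mean levels in both germinal zones. miR-598-3p was at 438 and 920 CPM in CP of area 17 and at 1085 and 1055 CPM in CP of area 18. In VZ it was at 70.3 and 155 CPM in area 17 and at 80.1 and 82.9 CPM in area 18, and in OSVZ it ran from 75.3 to 118 CPM with a median of 103 CPM. The 6 OSVZ libraries lay inside the range of the 4 VZ libraries. The lowest CP value, in CP_17 replicate 1, was still above the highest germinal one, in VZ_17 replicate 2. VZ averaged 97.0 ± 38.8 CPM (n = 4), OSVZ 100.5 ± 14.5 CPM (n = 6) and CP 875 ± 299.9 CPM (n = 4).

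**Figure D1:**
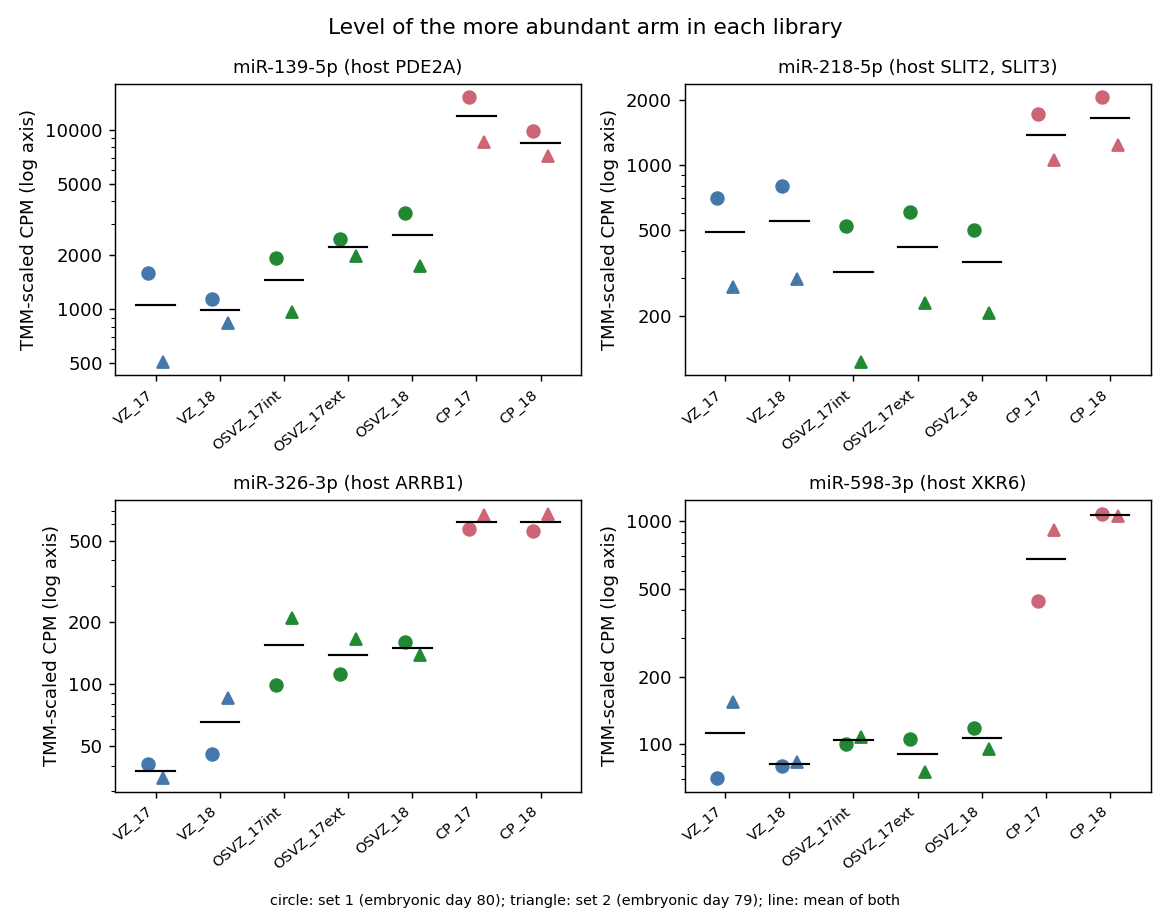
TMM-scaled CPM (log axis) of the more abundant arm of each miRNA in the 14 libraries, by region; circles are replicate 1 (embryonic day 80), triangles replicate 2 (embryonic day 79) and lines the mean of both. On this scale every CP point lies above every germinal point, with miR-139-5p at 7181 to 15290 CPM in CP and at 511 to 3460 CPM in the germinal zones, and the OSVZ points of miR-326-3p (98.3 to 211 CPM) lie between VZ and CP.

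By region and on the TMM scale, the order of miR-139-5p was CP_17 (mean 11936 CPM), CP_18, OSVZ_18, OSVZ_17ext, OSVZ_17int, VZ_17 and VZ_18 (mean 989 CPM), with neighbours that did not overlap only between CP_18 and OSVZ_18 and between OSVZ_17ext and OSVZ_17int. For miR-218-5p the order was CP_18 (1656 CPM), CP_17, VZ_18, VZ_17, OSVZ_17ext, OSVZ_18 and OSVZ_17int (321 CPM), and the only gap between neighbours was between CP_17 and VZ_18. For miR-326-3p it was CP_17 (618 CPM), CP_18, OSVZ_17int, OSVZ_18, OSVZ_17ext, VZ_18 and VZ_17 (37.8 CPM), with gaps below CP_18, below OSVZ_17ext and below VZ_18. For miR-598-3p CP_18 (1070.4 CPM) was above CP_17, which was above VZ_17, and no gap separated the remaining germinal regions, of which VZ_18 had the lowest mean (81.5 CPM). An overlap of neighbours takes no account of the pairing by set, so it does not show that they are alike. For miR-139-5p, CP_17 was above CP_18 in both sets, at 15290 against 9828 CPM and at 8582 against 7181 CPM. OSVZ_18 was above OSVZ_17ext in set 1 (3460 against 2464 CPM) and below it in set 2 (1749 against 1973 CPM). With 2 libraries a region, a gap is a description of 4 values.

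The contrasts that singled out these miRNAs gave the following sizes, on the log2 scale, from edgeR's quasi-likelihood fit with the set as a block. In VZ against CP, miR-139-5p was at -3.35 ± 0.39 (SE), miR-326-3p at -3.64 ± 0.44 and miR-598-3p at -3.16 ± 0.43, folds of 10.2, 12.5 and 8.92. The arm miR-218-5p differed less, at -1.70 ± 0.37, a fold of 3.24. In OSVZ against CP, miR-139-5p was at -2.25 ± 0.34, miR-218-5p at -2.24 ± 0.34, miR-326-3p at -2.07 ± 0.38 and miR-598-3p at -3.04 ± 0.39. These folds were 4.74, 4.71, 4.19 and 8.21. The 4 more abundant arms were below the adjusted p of 0.05 in both contrasts, where 7.37% of the 1139 tested arms were called in VZ against CP (2.63% higher and 4.74% lower in VZ) and 6.32% in OSVZ against CP (2.11% higher and 4.21% lower in OSVZ). Since the miRNAs were chosen by these contrasts, nothing follows from that count. Without the replicate block miR-218-5p in VZ against CP was no longer among them, at -1.55 with an adjusted p of 0.166 by edgeR; over all 21 alternatives its adjusted p ran from 9.51e-05 to 0.166.

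Within each set the direction was the same, and the sizes differed most for miR-218-5p. In VZ against CP, set 1 and set 2 gave -3.20 and -3.54 for miR-139-5p, -1.33 and -2.02 for miR-218-5p (folds of 2.51 and 4.05, or 1.66 and 3.16 by library totals), -3.70 and -3.49 for miR-326-3p, and -3.34 and -3.06 for miR-598-3p. Both contrasts share their CP libraries, so they are not independent of each other. TMM placed the median of all tested arms at -0.22 in VZ against CP and -0.20 in OSVZ against CP, whereas library totals placed it at 0.21 and 0.035. With library totals the VZ differences were -2.91 for miR-139-5p, -1.21 for miR-218-5p, -3.22 for miR-326-3p and -2.68 for miR-598-3p, and with DESeq2's size factors -3.09, -1.43, -3.39 and -2.92. Every scaling left all 4 arms lower in VZ. Among VZ libraries, VZ_17 replicate 2 had the fewest arms detected (1001) and VZ_18 replicate 1 the highest sum of erythroid marker arms (334 CPM), and without both the differences were -2.84, -1.47, -3.14 and -3.25 in the same order.

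Across all arms, 46 of 1139, which is 4.04%, had every CP library above every VZ and OSVZ library on the TMM scale, and the share was 10.6% among the 379 arms that averaged 10 CPM or more. This holds for 5 of the 8 arms described here, the 4 more abundant ones and miR-139-3p, again as a result of the choice.

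OSVZ against VZ is the step from the ventricular germinal layer to the outer one. It was not itself the criterion of the choice, but it is the difference of both contrasts with CP, on the same libraries. Its p-values and intervals are therefore given as descriptions too. In this contrast the 4 more abundant arms went different ways. miR-326-3p was 2.98-fold higher in OSVZ (log2 1.57 ± 0.39, 95% interval 0.78 to 2.37). All 6 OSVZ libraries were above all 4 VZ libraries on the TMM scale but not by library totals, as given above. The share of all arms with such a gap between OSVZ and VZ was not counted, so nothing is read from it. By edgeR's quasi-likelihood test miR-326-3p had an unadjusted p of 0.000305 and a Benjamini-Hochberg adjusted p over the 1139 arms of 0.173. miR-139-5p was 2.15-fold higher (1.11 ± 0.34, interval 0.42 to 1.79), with an unadjusted p of 0.00247 and an adjusted p of 0.297 in the same test. Neither passed the threshold, and both were already known to be among the arms of low p in this contrast when these miRNAs were chosen.

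For the other two the OSVZ difference was smaller. miR-218-5p was at -0.54 ± 0.33 (interval -1.22 to 0.14, adjusted p = 0.538 by edgeR), the opposite direction, and miR-598-3p at 0.12 ± 0.37 (interval -0.64 to 0.87, adjusted p = 0.947 by edgeR). These intervals still hold differences of -1.22 and 0.87, so the zones were not shown to be equal. None of the 7 tested member arms was called by edgeR, with 2 at an unadjusted p under 0.05; over all arms edgeR called 1, or 0.0878%, with 113 at an unadjusted p under 0.05. Within sets 1 and 2 the differences were 1.61 and 1.45 for miR-326-3p, 1.05 and 1.25 for miR-139-5p, -0.50 and -0.56 for miR-218-5p, and 0.56 and -0.34 for miR-598-3p, where the sets disagreed in sign.

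Calls in this contrast depended on the test and on 1 library. DESeq2's Wald test called miR-326-3p (1.47, adjusted p = 0.00269) and miR-139-5p (1.004, adjusted p = 0.0439). Without VZ_17 replicate 1, edgeR called them too, at 1.92 (adjusted p = 0.0182) and 1.53 (adjusted p = 0.0467). Over all alternatives the adjusted p ran from 0.00269 to 0.693 for miR-326-3p and from 0.0439 to 0.844 for miR-139-5p, while the difference stayed between 1.24 and 1.92 and between 0.76 and 1.53. The direction of miR-598-3p turned to -0.14 with library totals.

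**Figure D2:**
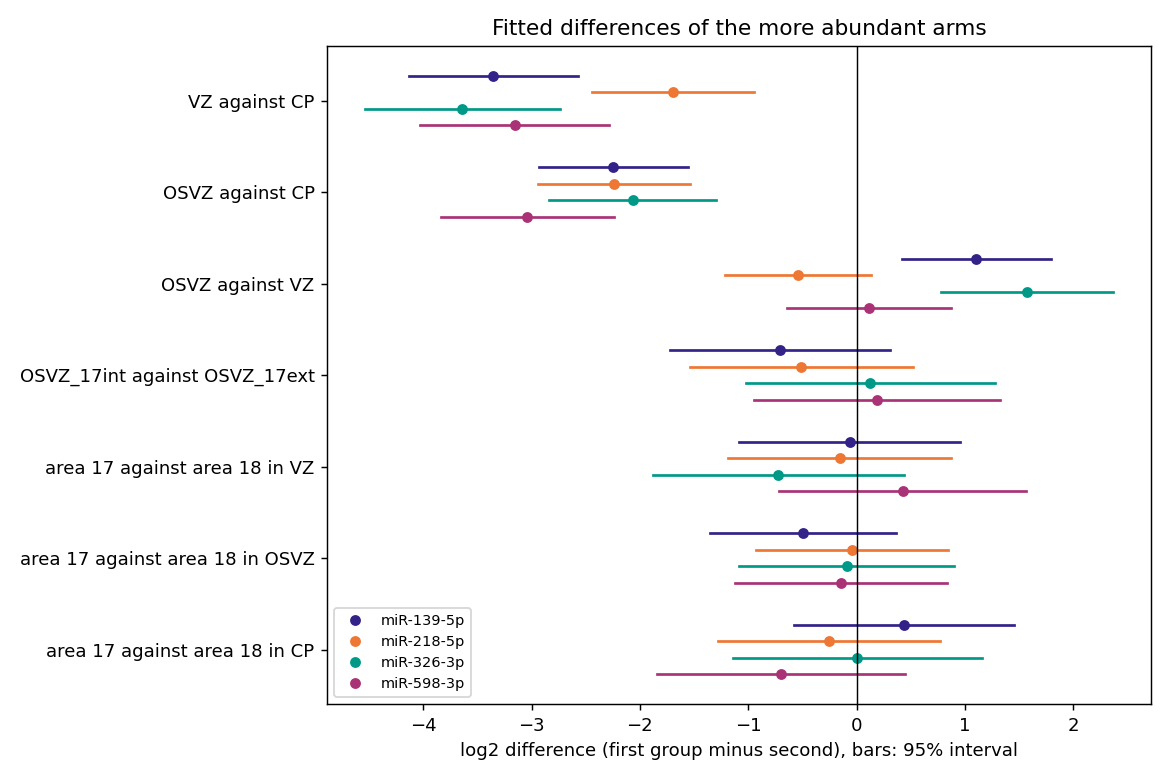
Fitted log2 differences (horizontal axis, first group minus second) of the 4 more abundant arms in the 7 contrasts, with 95% intervals as bars. Both contrasts with CP lie left of 0 by the choice of the miRNAs; in OSVZ against VZ the intervals of miR-139-5p (0.42 to 1.79) and miR-326-3p (0.78 to 2.37) lie right of 0 while those of miR-218-5p and miR-598-3p include it, before adjustment over all arms.

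Ratios of counts between members within a library do not depend on how libraries are scaled, and they show how the mix of these miRNAs shifted between zones. They are given without a test, as the miRNAs were chosen with results in view. How often ratios of other pairs of arms separate the zones was not counted, so nothing is read from the gaps below. The ratio of miR-139-5p to miR-218-5p was 1.42 to 2.84 in VZ (median 2.08), 3.71 to 8.57 in OSVZ (median 7.40) and 4.75 to 8.91 in CP (median 6.96). All 6 OSVZ libraries were above all 4 VZ libraries and overlapped with CP. On the log2 scale OSVZ exceeded VZ by 1.62, with 1.39 in set 1 and 1.84 in set 2.

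The ratio of miR-218-5p to miR-326-3p was 3.48 to 17.6 in VZ (median 12.5), 0.583 to 5.41 in OSVZ (median 2.32) and 1.58 to 3.73 in CP (median 2.43). OSVZ minus VZ was -2.12 on the log2 scale, with -1.96 and -2.29 in the sets, and 4 of the 6 OSVZ libraries were below all VZ libraries. The ratio of miR-326-3p to miR-598-3p was 0.224 to 1.03 in VZ, 0.978 to 2.19 in OSVZ and 0.511 to 1.30 in CP. Here OSVZ, not CP, was the zone with the highest median (1.40), and 5 of 6 OSVZ libraries were above all VZ libraries. Of the 3 other pairs, the OSVZ minus VZ difference was -0.51 for miR-139-5p over miR-326-3p, 0.94 for miR-139-5p over miR-598-3p and -0.68 for miR-218-5p over miR-598-3p.

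**Figure D3:**
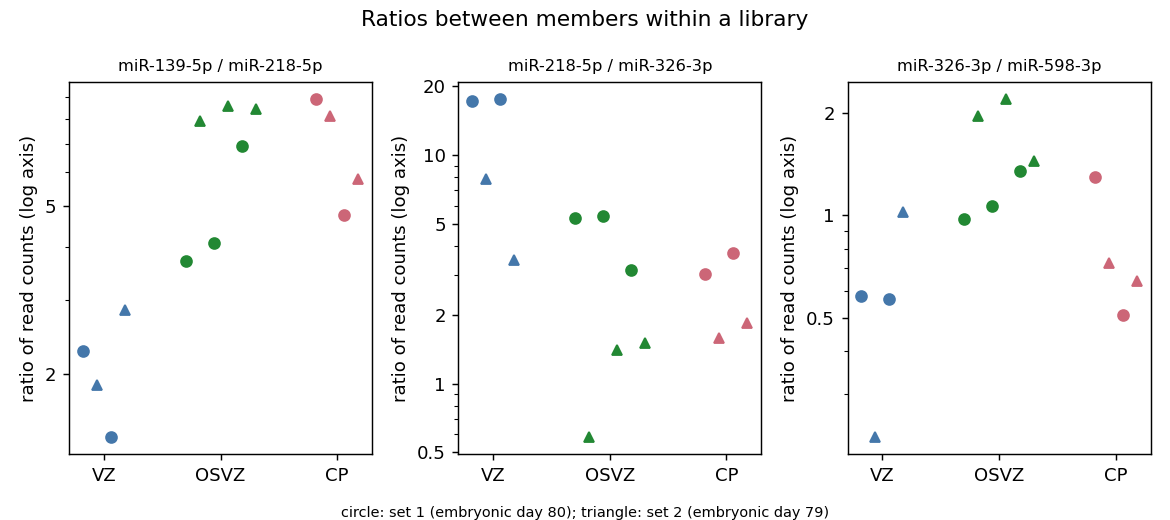
Ratio of read counts (log axis) between pairs of members in each library, by zone; circles are set 1 and triangles set 2, and points are spread sideways only to be seen. The ratio of miR-139-5p to miR-218-5p is 1.42 to 2.84 in VZ and 3.71 to 8.57 in OSVZ, with no overlap, and that of miR-218-5p to miR-326-3p is at its highest in VZ of set 1.

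The inner and outer sublayers of the area 17 OSVZ are the more apical and the more basal part of the zone where progenitors and migrating neurons mix. miR-139-5p was at 1926 and 969 CPM in the inner and at 2464 and 1973 CPM in the outer sublayer, a difference of -0.71 ± 0.50 (interval -1.73 to 0.31) toward the outer one in both sets. miR-218-5p was at -0.51 ± 0.51, miR-326-3p at 0.13 ± 0.57 and miR-598-3p at 0.19 ± 0.56, with adjusted p between 0.938 and 0.997 by edgeR for all 4. No arm of the 1139 was called by edgeR in this contrast (0.0%), with 46 at an unadjusted p under 0.05, none of them a member, and DESeq2's Wald test called 2. With 1 library per sublayer and set, a difference of the size of miR-139-5p here was not separable from the spread.

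Areas 17 and 18 later differ in how many neurons they hold, and the design compares them in each zone. In VZ, area 17 minus area 18 was -0.06 ± 0.50 for miR-139-5p, -0.16 ± 0.51 for miR-218-5p, -0.72 ± 0.57 for miR-326-3p and 0.43 ± 0.56 for miR-598-3p, and edgeR called 0.176% of all arms and none of these. In OSVZ the same differences were -0.49 ± 0.42, -0.04 ± 0.44, -0.09 ± 0.49 and -0.14 ± 0.48. In CP they were 0.44 ± 0.50, -0.25 ± 0.51, 0.01 ± 0.56 and -0.70 ± 0.56. The adjusted p of these 12 area differences was 0.685 or more by edgeR.

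In the OSVZ and CP area contrasts edgeR called none of the 1139 arms (0.0% in each), with 29 and 36 at an unadjusted p under 0.05, none of them a member. DESeq2's Wald test called 0 and 3. The CP value of miR-598-3p came with unequal sets: CP_17 was 438 against 1085 CPM in set 1 and 920 against 1055 CPM in set 2. Whether an area difference itself differed between zones was tested as an interaction over all arms, and the lowest adjusted p among the 7 tested member arms was 0.878 by edgeR, with none at an unadjusted p under 0.05.

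The sets of embryonic day 80 and day 79 differed for some members. miR-218-5p was lower in set 2 by edgeR's test of the block, at -1.28 ± 0.28 (adjusted p = 0.00241), lower in 7 of 7 regions, where 5.09% of all arms were called. miR-139-5p was at -0.81 ± 0.27 (adjusted p = 0.0751), also lower in 7 of 7 regions. miR-326-3p was at 0.38 ± 0.31 and miR-598-3p at 0.21 ± 0.30, with adjusted p of 0.612 and 0.818 by edgeR. The summed level of endothelial marker arms, on the TMM scale, was also higher in set 1 in every region. It ran from 2206 to 5289 CPM in set 1 and from 980 to 2877 CPM in set 2. Its part in the set differences of the members was not tested.

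Scaling decides this comparison. The TMM factors were 0.567 to 0.807 in set 1, except 1.32 in VZ_18, and 1.04 to 1.51 in set 2. With library totals the set difference of miR-218-5p was -0.48 (adjusted p = 0.246 by edgeR) and that of miR-139-5p was -0.002, while miR-326-3p and miR-598-3p were higher in set 2 by 1.17 and 1.02 (adjusted p = 0.0196 and 0.0434 by edgeR), in 7 of 7 regions each. The median of all arms was 0.018 with TMM and 0.81 with library totals. Under all 3 scalings miR-218-5p had the lowest set difference of the 4. Set, embryonic day and any batch of preparation cannot be told apart.

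Each miRNA had one main arm, as most names above a minimum count in a library did. Over those names, 204 to 379 per library, the median share of the minor arm was 0.784% to 3.27%. Over all libraries the 5p arm held 99.4% of the counts of miR-139 and 98.4% of those of miR-218, and the 3p arm held 99.6% of the counts of miR-326 and 99.8% of those of miR-598. Of the 8 arms, 7 passed the filter on low counts, and miR-326-5p, which had 0 counts in all 4 VZ libraries and at most 9 in all but 1 library, did not. A Wilson interval on such a share covers counting error only.

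miR-139-3p, the partner of the abundant 5p arm, was at 32.7 to 58.7 CPM in CP and at 2.15 to 22.7 CPM in the germinal libraries, with no overlap. Its fitted differences were -2.09 ± 0.86 in VZ against CP and -1.97 ± 0.78 in OSVZ against CP. Its share of the miR-139 counts was 0.382% to 0.601% in CP, 0.0873% to 1.37% in OSVZ and 0.580% to 1.96% in VZ. The highest 2 shares were those of both VZ_18 libraries. There the median minor-arm share over names above the minimum count was 2.91% and 2.72%, against 1.83% and 0.784% in VZ_17. OSVZ_18 replicate 2 had the highest such median of all libraries, 3.27%, with a miR-139-3p share of 0.542%. The part of these library-wide medians in the shares of miR-139-3p and miR-218-3p was not tested.

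Single libraries stood apart for miR-218-3p, and also for miR-326-5p and miR-598-5p, as given further below. The highest share was that of miR-218-3p. It held 7.37% of the miR-218 counts in VZ_18 replicate 1 (684 counts, 95% Wilson interval 6.85% to 7.92%) and 2.49% in VZ_18 replicate 2 (1.90% to 3.25%). In VZ_17 replicate 2 it had 0 of 2004 counts, with a 95% Wilson interval up to 0.191%. In CP of areas 17 and 18, miR-218-3p held 0.0804% and 0.0535% in replicate 1 and 1.04% and 1.56% in replicate 2. The level was 63.7 CPM in VZ_18 replicate 1 against 0 to 7.55 CPM in the other VZ libraries, and area 17 minus area 18 in VZ was -4.49 ± 2.09, with an adjusted p of 0.597 by edgeR. VZ_18 replicate 1 also had the highest summed level of erythroid marker arms of any library, 334 CPM against 55.9 to 128 CPM in the other VZ libraries, and the highest neuronal marker sum in VZ, 907 CPM; their part in the value of miR-218-3p was not tested.

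**Figure D4:**
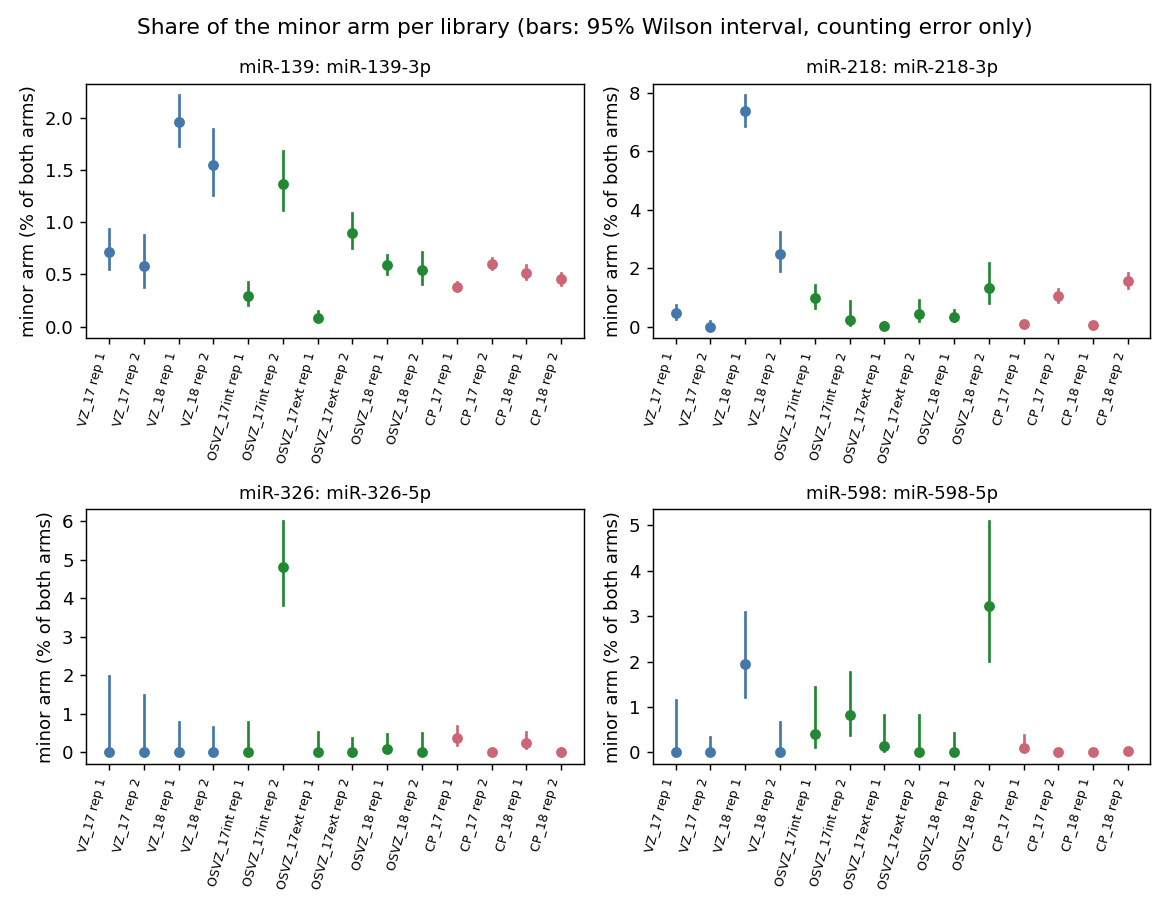
Minor arm as a percentage of the counts of both arms (vertical axis) in each of the 14 libraries, with 95% Wilson intervals for counting error, coloured by zone. Most libraries are under 2%; miR-218-3p in VZ_18 replicate 1 (7.37%), miR-326-5p in OSVZ_17int replicate 2 (4.81%) and miR-598-5p in OSVZ_18 replicate 2 (3.22%) stand above.

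To describe which arms had the most similar profile, Pearson's r was computed over the 14 libraries on log2 CPM after removing each set's mean, among the 379 arms that averaged 10 CPM or more. All points of such an r share their libraries, and CP has the highest zone mean of each arm named here, so r largely describes the step to CP. Between members, r was 0.951 for miR-139-5p with miR-326-3p, and no other arm was closer to either. It was 0.901 for miR-218-5p with miR-598-3p, 0.854 for miR-139-5p with miR-598-3p and 0.830 for miR-326-3p with miR-598-3p. The lowest were miR-139-5p with miR-218-5p at 0.798 and miR-218-5p with miR-326-3p at 0.680. The hosts of miR-139 and miR-326, PDE2A and ARRB1, lie on the same chromosome of the T2T-MFA8v1.1 assembly with 36 protein-coding genes between them. Whether their position has a part in this r was not tested.

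Beyond the members, the closest arms to miR-139-5p were miR-132-3p (r = 0.938), an activity-regulated neuronal miRNA, miR-340-3p (0.938) and miR-708-5p (0.923). Those closest to miR-326-3p were miR-708-5p (0.930), miR-340-3p (0.927) and miR-935-3p (0.912). The level of miR-708-5p averaged 685 ± 182 CPM over VZ (n = 4), 1406 ± 309 CPM over OSVZ (n = 6) and 3809 ± 1673 CPM over CP (n = 4), stepwise as for miR-326-3p. For miR-218-5p the closest were miR-138-5p (0.930), a regulator of dendritic spines, miR-487b-3p (0.928) and miR-137-3p (0.921). For miR-598-3p they were miR-138-5p (0.963), miR-181c-3p (0.958) and miR-7-3p (0.948). The level of miR-138-5p averaged 325.6 ± 170.2 CPM over VZ, 351 ± 129 CPM over OSVZ and 4034 ± 1770 CPM over CP, with similar means in both germinal zones as for miR-598-3p.

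Other miRNAs inside genes of the nervous system give a frame for these values. Of 36 such arms, 33 were tested, and in VZ against CP 1 was higher, 7 were lower and 25 did not pass the test, with a median of -0.81 where all tested arms had -0.22. In OSVZ against CP none was higher, 7 were lower and 26 did not pass, with a median of -0.70 against -0.20. Lower in both contrasts were miR-935-3p, at -3.03 ± 0.42 and -2.22 ± 0.38, and miR-708-5p, from the teneurin gene TENM4, at -2.43 ± 0.37 and -1.43 ± 0.33. miR-338-5p, from the kinase gene AATK, was at -2.41 ± 0.54 and -2.72 ± 0.50, and miR-767-5p at -2.58 ± 0.53 and -1.95 ± 0.47. All of these adjusted p were under 0.05 by edgeR.

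Of 62 arms in introns of widely expressed or cell cycle genes, 61 were tested. In VZ against CP 1 was higher, 5 were lower and 55 did not pass, with a median of -0.12, and in OSVZ against CP 2 were higher, 3 were lower and 56 did not pass, with a median of 0.0064. miR-423-5p was higher in both contrasts, at 2.34 ± 0.38 and 2.34 ± 0.37, while miR-340-3p was at -2.08 ± 0.36 and -1.42 ± 0.33 and miR-628-5p at -2.66 ± 0.54 and -2.80 ± 0.50, all with adjusted p under 0.05 by edgeR. In OSVZ against VZ no arm of either list passed edgeR's test, with medians of 0.14 for nervous system hosts and 0.32 for the others against 0.12 for all arms. In that contrast miR-708-5p was at 1.0003 ± 0.33 with an adjusted p of 0.350 by edgeR. miR-330-5p, known to share its seed with miR-326, was low at 2.39 CPM in VZ, 4.01 CPM in OSVZ and 9.11 CPM in CP, with -1.89 ± 1.41 in VZ against CP (adjusted p = 0.447 by edgeR).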

How the data were processed

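The deposited tables hold counts of reads for every miRNA name, as a 5p and a 3p column per library. The aligner, genome build, miRNA annotation and treatment of reads matching several loci are not given in the sources used here. Columns were matched to labels by their region name and table; 12 value columns of 6 libraries match no label and were not used. The design was written for 20 libraries in 3 sets and fitted to 14 libraries in 2 sets. The 828 names in both tables gave 1656 arms, of which 1139 passed edgeR's filterByExpr by region. Each name had 1 row.

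Counts were scaled by TMM and fitted in edgeR 4.0.16 (R 4.3.3) by quasi-likelihood, on all 14 libraries with region and replicate set as terms, and p-values were adjusted by Benjamini-Hochberg over the 1139 arms. An adjusted p under 0.05 is referred to as a call. VZ and CP are means of both areas, and OSVZ gives area 18 and the averaged sublayers of area 17 equal weight. The set was kept as a block because the labels give each set its own embryonic day; deviations from the region means correlated within sets with a median r of 0.576 (0.228 to 0.723, 21 of 21 pairs above 0.1, over 379 arms). Arms were taken by the names given at the opening, the closest arms as the 3 of highest r, and arms of a list as those of lowest p. The miRNAs, lists and tests were chosen with earlier results of these data known. The fit was tested on simulated data. Counts of amplified reads are not independent molecules, and depth limits arms of few counts. DESeq2 1.42.0, other scalings and filters, and leaving out libraries were the alternatives.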

Additional observations from a re-analysis of the deposited data

Results flagged for a closer look

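In 34 groups of 4 or 6 libraries, 8 had a library whose distance to the nearest other one exceeded Dixon's 95% limit. Chance gives about 1 in 20 for independent, normally distributed values. The values here are not independent, since a level and the share of the same arm move together. Some groups were mostly 0, with 3 of 4 VZ libraries for miR-598-5p and 4 of 6 OSVZ libraries for miR-326-5p. The 8 can therefore not be set against that rate. In VZ, miR-598-3p was at 155 CPM in VZ_17 replicate 2, apart from the other VZ libraries at 70.3 to 82.9 CPM. miR-218-3p was at 63.7 CPM in VZ_18 replicate 1.

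The remaining cases concern minor arms of few counts. miR-326-5p was at 10.6 CPM in OSVZ_17int replicate 2 (72 counts), where it held 4.81% of the miR-326 counts (95% Wilson interval 3.83% to 6.01%). miR-598-5p was at 1.58 CPM in VZ_18 replicate 1 (17 counts), with 1.94% of the miR-598 counts (1.21% to 3.08%), and at 3.18 CPM in OSVZ_18 replicate 2 (17 counts), with 3.22% (2.02% to 5.10%).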

How the results depend on the processing

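In the contrasts with CP, all 4 more abundant arms kept their direction under all 21 alternatives, and the adjusted p under 0.05 was lost once, by miR-218-5p in VZ against CP without the replicate block (-1.55, adjusted p = 0.166). Of 612 values of single arms under alternatives, 570 counted as the same and 33 changed sign. A further 5 moved by more than the spread, and 4 passed the threshold where the main value did not. In the contrasts with CP, the same meant an unchanged sign and a move of less than the main SE, whatever the threshold. The lost call of miR-218-5p is therefore among the 570. In the other contrasts, the same meant an unchanged sign and side of the threshold, and for zone levels a move of less than the SD. Without the replicate block, the called arms went from 84 to 53 in VZ against CP, from 1 to 0 in OSVZ against VZ and from 2 to 0 in the area contrast in VZ. DESeq2's Wald test called 169, 120, 28, 2, 22 and 3 arms in VZ against CP, OSVZ against CP, OSVZ against VZ, inner against outer OSVZ, and the area contrasts in VZ and CP. Leaving out single libraries gave 53 to 120, 44 to 100, 0 to 24, 0 to 1, 1 to 26, 0 to 1 and 0 to 3 calls over the 7 contrasts in the order of the report; VZ_17 replicate 1 gave the 120, the 24 and the 26. The split of 30 higher and 54 lower in VZ against CP became 37 and 32 with library totals, and that of 24 and 48 in OSVZ against CP 38 and 34. OSVZ against VZ had 0 calls with DESeq2 size factors, for library totals and among arms of at least 10 CPM. The area contrast in VZ had 1 call with DESeq2 size factors, 5 with no filter and 0 with arms of at least 10 CPM, and that in CP 3 with no filter. Leaving out VZ_17 replicate 2 and VZ_18 replicate 1 together, an alternative added after seeing the data, gave 125, 2, 6, 0, 1 and 3 calls in the contrasts after VZ against CP.

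Sign changes arose in the contrasts other than germinal zone against CP. miR-598-3p in OSVZ against VZ was -0.14 under library totals, -0.027 for arms of at least 10 CPM and -0.037 to 0.40 without single libraries. Between areas in VZ, miR-139-5p was 0.10 without the replicate block, 0.070 with DESeq2 size factors and with DESeq2 and 0.43 without both VZ libraries, where miR-218-5p was 0.23. In OSVZ, miR-218-5p was 0.049 without the replicate block and 0.016 with arms of at least 10 CPM, where miR-326-3p was 0.0088, and in CP miR-326-3p was -0.10 with library totals. Without single libraries, the area difference in VZ ran from -0.68 to 0.48 for miR-139-5p, -0.28 to 0.076 for miR-218-5p and -0.078 to 0.82 for miR-598-3p. In OSVZ it ran from -0.36 to 0.059 for miR-218-5p, -0.58 to 0.27 for miR-326-3p and -0.60 to 0.19 for miR-598-3p, and in CP from -0.63 to 0.15 for miR-218-5p and -0.041 to 0.15 for miR-326-3p. Between sublayers it ran from -0.59 to 0.47 for miR-326-3p, which was -0.023 without both VZ libraries, and from -0.18 to 0.64 for miR-598-3p. The cause was not tested. Each miRNA name had 1 row, so treating rows singly gave no other value.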
